A study of Mus musculus with 12 samples.

Results

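The comparison described here is clozapine against vehicle in the frontal cortex of mice labelled as conditional knockouts of Hdac2, a histone deacetylase gene. Its members are the 6 libraries whose labels give that genotype, 3 with clozapine and 3 with vehicle, out of 12 libraries in the series. All 17286 genes that passed the filter on low counts, of 47069 in the annotation, were compared. The mice were male C57BL/6, and both groups carry loxP-flanked Hdac2 alleles and 1 CamKIIa-driven Cre transgene (labelled HDAC2(loxP,loxP), CamKIIa-Cre(+,-)), so floxed alleles and Cre are shared by the control libraries. Clozapine was given chronically at 10 mg/kg and the other group was labelled vehicle. The duration of dosing, the age of the animals and the hour of dissection are not given in the sources used here. The sample labels name prefrontal cortex, and the extraction text bilateral frontal cortex. The other 6 libraries are male C57BL/6 wild-type mice under the same 2 treatments, 3 each, and they enter the fit that estimates the spread, the test of a difference between genotypes and the wild-type values given beside those of the labelled knockout. Libraries are named by group and number: knockout vehicle 2, 4 and 5, and knockout clozapine 3, 4 and 5. The labels number the libraries but do not state that each came from a separate animal, and p-values here therefore reflect only how much these libraries vary, which may be technical.

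Clozapine is an antipsychotic drug that blocks many receptors, among them serotonin 5-HT2A, dopamine D2, muscarinic, histamine and adrenergic receptors. HDAC2 removes acetyl groups from histone tails as a catalytic subunit of the NuRD, Sin3 and CoREST complexes, and in the forebrain it is known as a negative regulator of synaptic gene transcription. The CamKIIa promoter drives Cre mainly in excitatory neurons of the postnatal forebrain, so interneurons, glia and vascular cells keep intact Hdac2 in such a cross. Bulk tissue was measured, in which fewer cells of a type and less RNA per cell cannot be told apart.

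The 6 libraries held 23788014 to 28069638 counts, knockout vehicle 5 being the deepest. Expression is given as CPM, the counts of a gene for each megaread of a library size scaled by the TMM method, and changes as log2 of clozapine over vehicle with the standard error (SE) of the fit, 3 libraries against 3. The test was edgeR's quasi-likelihood test with Benjamini-Hochberg adjustment over all tested genes, fitted on the 12 libraries together, and a gene is said to rise or fall where its adjusted p was under 0.05. Within a group, every pair of libraries varied beyond counting noise (a chi-square per gene of 4.72 to 11.3), so none looked like a repeat deposit of another. The first principal component of the 6 libraries held 31.2% of the variance and placed knockout vehicle 5 at -14.7, the other 2 vehicle libraries at -8.40 and -2.64, and the clozapine libraries at 4.59 to 14.2. Markers of the labelled tissue were present: the sum over 8 excitatory neuron markers was 8330 to 9070 CPM under vehicle and 9440 to 9830 CPM under clozapine, and the sum over 4 choroid plexus markers was between 4.57 and 9.71 CPM.

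Hdac2 itself did not pass the test. The gene lies on chromosome 10 at 36974544 to 37001889 of GRCm38 (ENSMUSG00000019777.16). Vehicle libraries of the labelled knockout gave 75.4, 76.6 and 73.3 CPM and clozapine libraries 73.9, 70.5 and 71.2 CPM. The ranges overlapped, and the log2 change was -0.06 (SE 0.06, 95% interval -0.19 to 0.06, edgeR adjusted p = 0.727). Its means in wild type were 69.7 CPM under vehicle and 73.8 CPM under clozapine, so the gene-level count does not set the labelled knockout apart. The counts cover whole genes, including exons outside a deleted stretch, and cannot check the deletion, so the genotype is written as labelled. Among the 11 histone deacetylase genes tested, none passed the threshold. Hdac3, the catalytic subunit of the NCoR and SMRT complexes, was at 76.9, 82.7 and 81.2 CPM under vehicle and 70.04, 73.2 and 71.2 CPM under clozapine (log2 -0.17, unadjusted p = 0.00562, edgeR adjusted p = 0.191). Hdac4, a class IIa deacetylase, had a log2 difference of 0.20 (edgeR adjusted p = 0.198). Of 23 co-repressor genes, most of them of the HDAC1/2 complexes, 0 passed, and Ncor1, the scaffold of the HDAC3-containing NCoR complex, had the smallest p (log2 0.21, edgeR adjusted p = 0.196).

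Clozapine changed 4 genes in the labelled knockout, which is 0.0231% of those tested. Amer2 and Tnrc18 rose (0.0116%), and the 2 copies of the gene for 7SL RNA, Rn7s1 and Rn7s2, fell (0.0116%). At the wider threshold of an adjusted p under 0.10, 113 genes passed (0.654%), 85 higher (0.492%) and 28 lower (0.162%). At an unadjusted p under 0.05 there were 2117 genes (12.2%), 1212 higher (7.01%) and 905 lower (5.24%). Changes were small throughout: the median absolute log2 difference was 0.0805, and 14 genes of 17286 differed by at least 1 on the log2 scale. The difference was above 0 for 49.3% of genes, and the groups did not overlap for 18.7%, 9.72% higher and 8.97% lower. The number of calls depended strongly on the method. DESeq2 called 274 genes (1.59%), 213 higher (1.23%) and 61 lower (0.353%), while limma-voom called 2. Leaving out knockout clozapine 4 or knockout clozapine 5 left 0 genes past 0.05 in edgeR, where 1775 and 1818 genes had an unadjusted p under 0.05, and leaving out knockout vehicle 4 gave 25. Because the spread is shared over 4 groups, wild-type libraries moved the count too, from 2 without wild-type vehicle 3 to 23 without wild-type vehicle 1.

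Amer2 encodes a membrane-bound protein that binds APC and dampens Wnt/beta-catenin signalling. Its level was 15.1, 16.9 and 14.2 CPM under vehicle and 23.7, 20.4 and 22.6 CPM under clozapine. All 3 clozapine libraries lay above all 3 vehicle libraries, and the log2 change was 0.53 (SE 0.08, edgeR adjusted p = 0.0455). Its wild-type means were 21.8 CPM under vehicle and 23.8 CPM under clozapine, close to the clozapine libraries of the labelled knockout. Tnrc18 encodes a chromatin protein that reads a repressive histone mark. It was at 127, 122 and 109 CPM under vehicle and at 152, 150.2 and 151 CPM under clozapine. The clozapine libraries lay within 2 CPM of each other and above every vehicle library (log2 0.34, SE 0.05, edgeR adjusted p = 0.0455). DESeq2 called both (adjusted p = 0.00019353 for Amer2 and 9.2166e-05 for Tnrc18) and limma-voom neither. Nor was either called with RLE in place of TMM scaling, or after the length and GC correction given below. In both of those fits 0 genes were called higher and 2 lower. Of the 12 fits that each left out 1 library, Amer2 passed in 6 and Tnrc18 in 5, and both failed without any single one of the 3 knockout clozapine libraries or without knockout vehicle 5. Amer2 failed further without knockout vehicle 2 or wild-type vehicle 3, and Tnrc18 without vehicle 3, vehicle 4 or clozapine 3 of the wild type.

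The lower side was led by small RNAs that RNA polymerase III transcribes. 7SL RNA is the RNA core of the signal recognition particle, which takes nascent secretory proteins to the endoplasmic reticulum. 7SK RNA, from Rn7sk, holds the elongation factor P-TEFb inactive, and Rpph1 is the RNA subunit of ribonuclease P, which trims the 5' ends of tRNAs. These RNAs carry no poly(A) tail, and the libraries were made as mRNA libraries. The transcripts of Rn7s1 and Rn7s2, both on chromosome 12, have the same 300 bases in GENCODE release 21, with 0 differences. Reads that lie within these bases cannot be told apart, and the pair is treated as 1 measurement. The deposited counts of the copies were close but not equal, for instance 63 and 65.67 in knockout vehicle 4. Rn7s1 shares 23.3% of its exonic bases with Gm47287 and 25.7% with Gm47295, both on the same strand. For Rn7s2 these shares are 23.3% with Gm47305 and 25.7% with Gm47299. Reads of both copies may thus be counted in part elsewhere. Rn7sk lies at chr9:78175303-78175633 and Rpph1 at chr14:50807449-50807767, both on the minus strand of GRCm38. Of the Rn7sk transcript the 3' end, chr9:78175303-78175422, is shown. The capitals mark the run of 3 T at which the annotated transcript ends.
Rn7sk, last 120 bases: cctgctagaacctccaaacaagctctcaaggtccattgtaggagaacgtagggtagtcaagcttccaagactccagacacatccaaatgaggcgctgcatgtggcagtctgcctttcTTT

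In the labelled knockout Rn7s1 had 2.12, 2.61 and 2.87 CPM under vehicle and 0.824, 0.719 and 0.579 CPM under clozapine, from 51.5 to 83.33 and 14.5 to 20.5 deposited counts. Every clozapine library was below every vehicle library, and the log2 change was -1.84 (SE 0.24, edgeR adjusted p = 0.00852). Rn7s2 gave nearly the same values (log2 -1.86, SE 0.25, edgeR adjusted p = 0.00852). In wild type the direction was the other: Rn7s1 was at 0.827, 0.846 and 0.952 CPM under vehicle and at 1.22, 2.28 and 1.63 CPM under clozapine. The wild-type vehicle level was thus near the level of the clozapine libraries of the labelled knockout, and the highest group was knockout vehicle. The difference between the 2 clozapine effects was -2.80 for Rn7s1 and -2.79 for Rn7s2 (SE 0.34 and 0.35, edgeR adjusted p = 0.00195 for both). The fall passed in 10 of 12 fits that left out 1 library, failing without knockout clozapine 4 (edgeR adjusted p = 0.0671) and without knockout clozapine 5 (edgeR adjusted p = 0.128), and limma-voom called it (adjusted p = 0.047584). DESeq2 gave neither copy an adjusted p.

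The other 2 tested RNAs of the kind lay the same way without passing. Rn7sk was at 8.77, 9.21 and 11.8 CPM under vehicle and 6.39, 5.92 and 5.87 CPM under clozapine (log2 -0.71, SE 0.14, edgeR adjusted p = 0.0728). Rpph1 was at 1.63, 1.70 and 2.11 CPM under vehicle and 0.742, 0.550 and 0.703 CPM under clozapine (log2 -1.45, SE 0.28, edgeR adjusted p = 0.0728). Neither gene's groups overlapped, and in wild type Rn7sk was at 8.85 CPM under both treatments and Rpph1 at 0.878 and 0.826 CPM. With the 7SL pair counted once, 3 of 3 measurements of RNA polymerase III transcripts had groups that did not overlap, lower with clozapine, as did 8.97% of all tested genes. The list has 10 entries, of which 6 had too few counts to be tested. In the annotation 73.0% of the exonic bases of Rpph1 are shared with Ccnb1ip1 on the same strand, so its reads may be counted in part elsewhere.

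**Figure D1:**
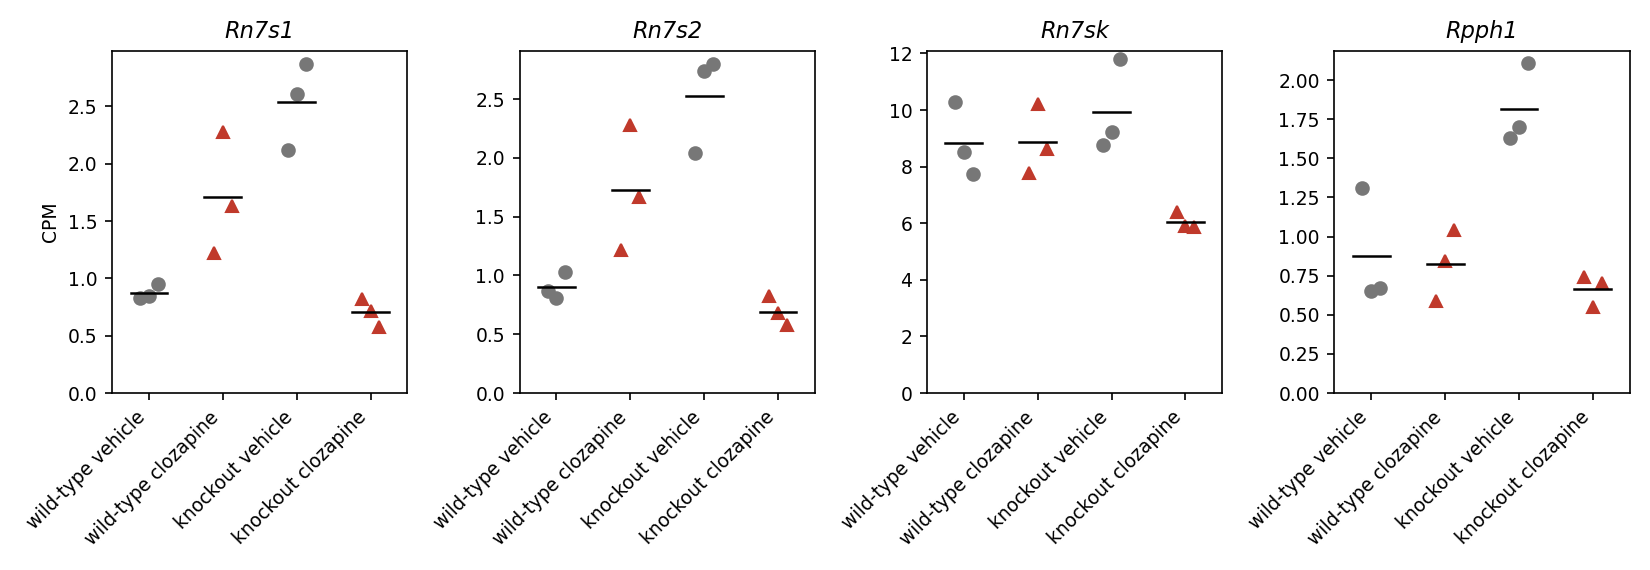
Level in CPM (vertical axes, from 0) of 4 RNA polymerase III transcripts in the 12 libraries, grouped by labelled genotype and treatment; points are libraries and bars are means of 3. The knockout clozapine libraries of Rn7s1 and Rn7s2 lie between 0.579 and 0.824 CPM, below all 3 knockout vehicle libraries, and the wild-type pair of groups runs the other way.

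Beyond the 4 called genes, the next in order of p did not pass and are given by their values. The 12 higher genes of smallest p had log2 differences of 0.30 to 0.64 and adjusted p up to 0.0728, and the 12 lower ones of -1.86 to -0.35 and up to 0.08. In all 24 the clozapine and vehicle libraries did not overlap, which the choice of these genes required. The remaining 20 of the 24 were not called by edgeR, and DESeq2 called 14 of them. To the others, Palm2, Fat4, Clec18a, Rpph1, Rn7sk and Hps1, DESeq2 gave no adjusted p.

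Among the higher ones, several encode large neuronal signalling proteins. Lmtk2, a membrane-anchored kinase, was at 283, 277 and 246 CPM under vehicle and 338, 337 and 338 CPM under clozapine (log2 0.33, SE 0.06). Cacna1a, the pore subunit of the P/Q-type calcium channel that triggers transmitter release, was at 214, 216 and 196 CPM under vehicle and 249, 257 and 264 CPM under clozapine (log2 0.30, SE 0.05). Both had an edgeR adjusted p of 0.0674. Rasgrf2, an exchange factor for Ras that NMDA receptors can engage, was at 218, 217 and 205 CPM under vehicle and 270.1, 261 and 262 CPM under clozapine (log2 0.31, SE 0.06). Med13l, a subunit of the Mediator kinase module, and Helz, an RNA helicase, differed by 0.31 and 0.32 on the log2 scale. Rapgef5, an exchange factor for Rap, was at 63.3, 70.1 and 60.1 CPM under vehicle and 85.9, 84.7 and 78.2 CPM under clozapine. Cell surface and cytoskeletal genes were also in this group. Fzd3, a Wnt receptor for axon guidance, was at 17.6, 19.7 and 14.3 CPM under vehicle and 25.1, 27.2 and 24.2 CPM under clozapine (log2 0.57, SE 0.11, edgeR adjusted p = 0.0728). Fat4, a large cadherin, and Nav3, a microtubule-binding protein, differed by 0.54 and 0.37. Palm2, a membrane-associated phosphoprotein gene, differed by 0.64, with 39.1% of its exonic bases shared with the read-through gene Pakap, which makes its value uncertain. In wild type the log2 changes of these 12 genes lay between -0.16, for Cacna1a, and 0.12, for Amer2 and Lmtk2.

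The lower group held genes of mixed function. Clec18a, which encodes a C-type lectin, was at 9.79, 10.2 and 8.9997 CPM under vehicle and 6.30, 6.47 and 5.67 CPM under clozapine (log2 -0.65, SE 0.12, edgeR adjusted p = 0.0728). Cpne7, a calcium-dependent phospholipid-binding copine, was at 32.2, 37.3 and 32.6 CPM under vehicle and 25.7, 21.9 and 22.3 CPM under clozapine (log2 -0.55, SE 0.11). Hpcal1, a neuronal calcium sensor, was at 63.4, 61.6 and 55.2 CPM under vehicle and 47.5, 43.6 and 44.5 CPM under clozapine (log2 -0.41, SE 0.08). Its wild-type means, 25.5 CPM under vehicle and 29.1 CPM under clozapine, were below every library of the labelled knockout. Mfsd2a, the lipid transporter of the blood-brain barrier endothelium, was at 25.5, 28.9 and 29.0 CPM under vehicle and 19.5, 23.3 and 21.1 CPM under clozapine (log2 -0.38, SE 0.08, edgeR adjusted p = 0.08). Arhgef15, a guanine nucleotide exchange factor gene expressed in endothelium, differed by -0.40. The list of 8 endothelial markers did not lie lower, with a median log2 difference of -0.00478. At an unadjusted p under 0.05, 1 of these markers was higher and 0 lower, against 7.01% and 5.24% of all tested genes. Hnrnpu, a nuclear RNA-binding protein, was at 78.9, 77.5 and 89.4 CPM under vehicle and 55.5, 63.8 and 67.6 CPM under clozapine (log2 -0.40, SE 0.08). Stx3, a syntaxin of membrane fusion, and Hps1, a subunit of a complex for lysosome-related organelles, differed by -0.35 and -0.61.

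**Figure D2:**
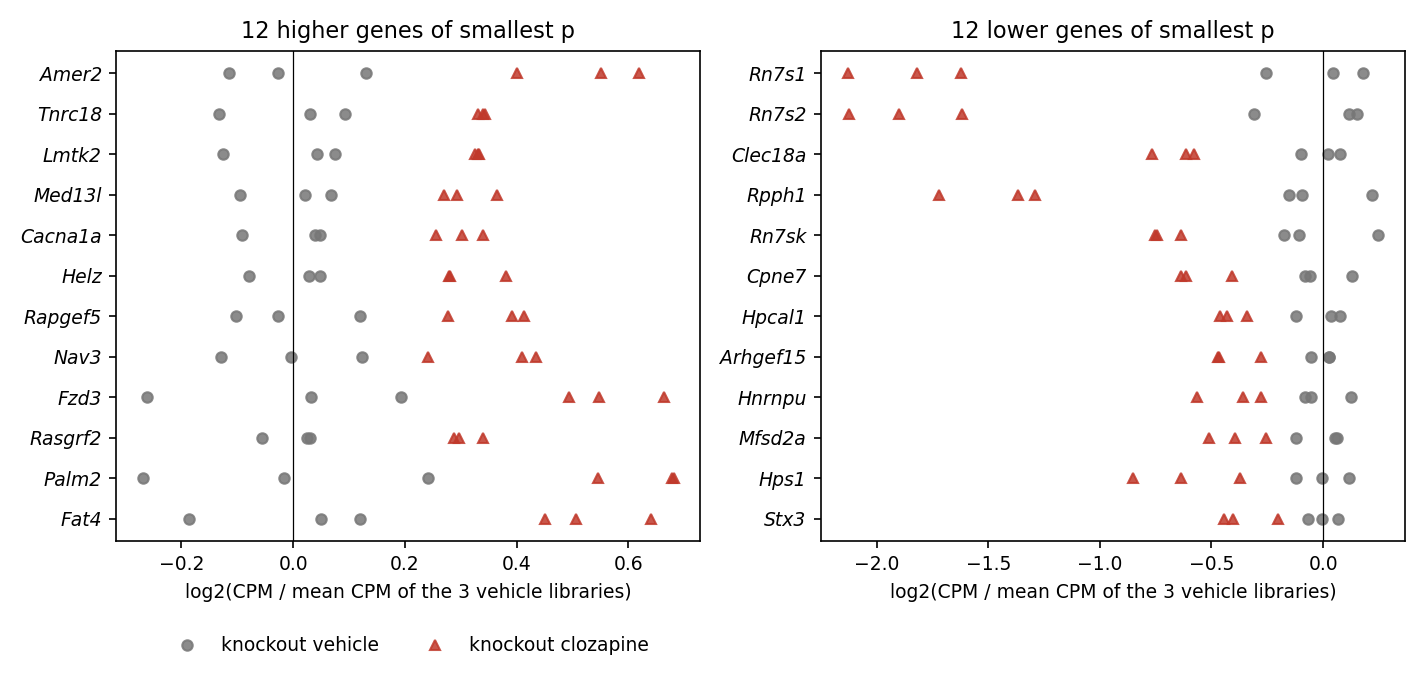
CPM of each library relative to the mean of the 3 knockout vehicle libraries, on a log2 axis, for the 12 higher (left) and 12 lower (right) genes of smallest p; grey circles are vehicle and red triangles are clozapine. No gene shown has overlapping groups, since that was a condition of choice, and only Amer2, Tnrc18, Rn7s1 and Rn7s2 passed the adjusted threshold.

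Long genes made up most of the higher side. Of the 85 genes higher at an adjusted p under 0.10, 68 were in the longest of 4 equal classes of tested genes by exonic length (6383 bases or more), against 6 of the 28 lower ones. Median exonic length was 11182 bases for the higher genes, 3811 for the lower ones and 4004 for all tested genes. At an unadjusted p under 0.05, 16.4% of the longest class was higher and 4.44% lower, while in the shortest class 2.05% was higher and 4.81% lower. Across 17197 genes, which are not independent replicates, the log2 difference had a Spearman correlation of 0.183 with length, 0.125 with GC content and 0.199 with expression. Length moved with single libraries too: the correlation of a gene's deviation with its length was -0.249 in knockout vehicle 5 and 0.152 and 0.19 in knockout clozapine 4 and 5, with -0.0779 to 0.0568 in the other 3. The part of length in the results was not tested, and the values with it corrected and with that library left out follow. After a smooth correction of each library for length and GC content 10 genes remained at 0.10 (3 higher and 7 lower). Of these, 2 were under 0.05, both lower, so neither Amer2 nor Tnrc18 was called. At an unadjusted p under 0.05 there were 915 higher and 988 lower genes. Without knockout vehicle 5, 11 genes passed at 0.10, 6 of them among the 113. The drop was not particular to that library. The count at 0.10 was 4, 3 and 0 without knockout clozapine 3, 4 and 5, and 99 and 197 without knockout vehicle 2 and 4. All 113 kept their direction in each of these fits.

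**Figure D3:**
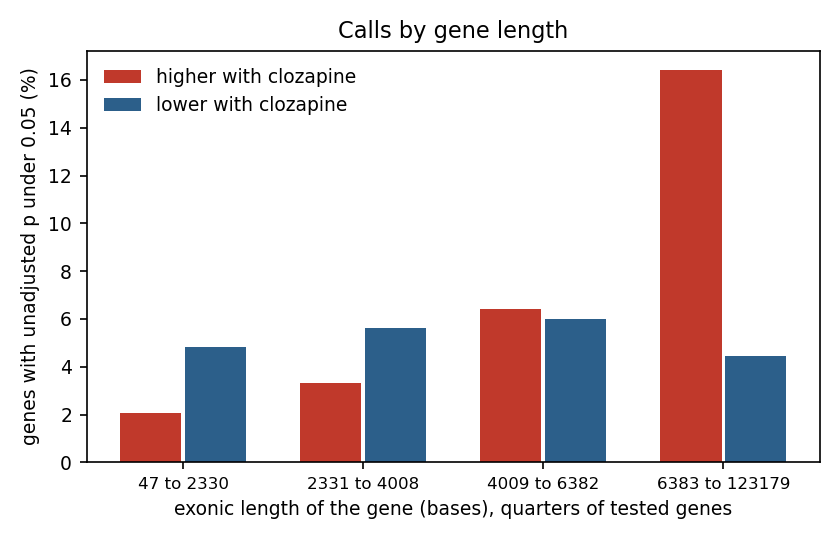
Share of tested genes with an unadjusted p under 0.05 (vertical axis, percent) in each of 4 equal classes of exonic length (horizontal axis, bases), higher (red) or lower (blue) with clozapine. The higher share runs from 2.05% in the shortest class to 16.4% in the longest, and the lower share stays between 4.44% and 6.00%.

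The gene lists below were written with earlier results of these data known, and are described by counts and medians beside those of all tested genes, whose median log2 difference was -0.00207. At an unadjusted p under 0.05, 7.01% of all tested genes were higher and 5.24% lower, shares that were 4.62% and 4.11% without knockout vehicle 5 and 5.32% and 5.75% after the length and GC correction. Voltage-gated ion channel genes, which set neuronal firing, lay on the higher side. Of 24 potassium channel genes, 12 (50%) were higher and 0 lower at an unadjusted p under 0.05, and the median log2 difference was 0.167. None passed the adjusted threshold in edgeR, and DESeq2 called 8. Kcna2, a delayed rectifier of axons, was at 303, 303 and 265 CPM under vehicle and 351, 368 and 367 CPM under clozapine (log2 0.32, SE 0.06, edgeR adjusted p = 0.0728). Kcnc1, a channel of fast-spiking neurons, differed by 0.25, and Kcnh7, an ERG-type channel, by 0.33. Of 8 sodium channel genes, 4 (50%) were higher and 0 lower, with a median of 0.175. Scn8a, the main sodium channel of the axon initial segment, was at 337, 357 and 283 CPM under vehicle and 407, 419 and 428 CPM under clozapine (log2 0.36, SE 0.08, edgeR adjusted p = 0.0931), and Scn1a differed by 0.30. Of 15 calcium channel genes, 6 (40%) were higher and 0 lower, with a median of 0.125. Besides Cacna1a, the T-type channel gene Cacna1i was at 145, 157 and 136 CPM under vehicle and 182, 185 and 194 CPM under clozapine (log2 0.36, SE 0.08, edgeR adjusted p = 0.0967). In wild type the medians of the 3 lists were 0.00842, 0.0344 and -0.00466. With the correction for length and GC the 3 medians in the labelled knockout were 0.126, 0.136 and 0.0767, and without knockout vehicle 5 they were 0.108, 0.129 and 0.101.

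Synaptic genes showed a similar layout with more weight on 1 library. Of 21 postsynaptic scaffold and signalling genes, 11 (52.4%) were higher and 0 lower at an unadjusted p under 0.05, with a median of 0.133 against -0.126 in wild type. Without knockout clozapine 4 or 5 the count was 7, without knockout vehicle 5 it was 6 with a median of 0.072, and after the length and GC correction they were 6 and 0.0645. Kalrn, an exchange factor that shapes dendritic spines, was at 694, 741 and 666 CPM under vehicle and 865, 871 and 821 CPM under clozapine (log2 0.28, SE 0.06, edgeR adjusted p = 0.082). Shank3, a scaffold of excitatory synapses, was at 312, 301 and 273 CPM under vehicle and 351, 353 and 374 CPM under clozapine (log2 0.28, SE 0.07, edgeR adjusted p = 0.0967). Its paralogs Shank1 and Shank2 each differed by 0.24, with knockout vehicle 5 the lowest library of all 3 Shank genes. Of 20 presynaptic genes 5 (25%) were higher and 0 lower, with a median of 0.0858. Without knockout vehicle 5 these were 2 genes and 0.0174, without knockout clozapine 5 the count was 3, and the median was 0.0427 after the length and GC correction. Bsn, which encodes the active-zone scaffold bassoon, was at 451, 449 and 329 CPM under vehicle and 551, 562 and 510.1 CPM under clozapine (log2 0.40, SE 0.10, edgeR adjusted p = 0.144). Its partner Pclo differed by 0.32.

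Of 16 ionotropic glutamate receptor genes, 3 (18.8%) were higher and 0 lower, and all 3 encode NMDA receptor subunits. Grin2a was at 155, 148 and 126 CPM under vehicle and 179, 185 and 189 CPM under clozapine (log2 0.37, SE 0.07, edgeR adjusted p = 0.079). Grin2b was at 263, 249 and 202 CPM under vehicle and 344, 312 and 334 CPM under clozapine (log2 0.47, SE 0.13, edgeR adjusted p = 0.177). Grin1, the obligatory subunit, differed by 0.13. The median of the whole list was 0.0379, and it was 0.00433 after the length and GC correction and -0.034 without knockout vehicle 5. Of 16 genes of GABA receptors and transporters 4 (25%) were higher and 0 lower, with a median of 0.0514. The count was 2 without knockout clozapine 5, and the median 0.0292 without knockout vehicle 5. Gabrb2, a GABA-A receptor subunit gene, differed by 0.35 (edgeR adjusted p = 0.235).

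Of the genes of receptors that clozapine binds, 29 were tested, and 20 had a positive difference. At an unadjusted p under 0.05, 4 (13.8%) were higher and 1 (3.45%) lower, against 7.01% and 5.24% of all tested genes. The groups did not overlap for 6, all higher, a pattern of 9.72% of all tested genes. None passed the adjusted threshold in edgeR, and DESeq2 called 2. The median was 0.0823. It was 0.0916 after the length and GC correction, 0.131 without knockout vehicle 4 and 0.0509 without knockout vehicle 5. Chrm1, the main cortical muscarinic receptor, was at 196, 215 and 189.7 CPM under vehicle and 235, 230.2 and 227 CPM under clozapine (log2 0.21, SE 0.05, edgeR adjusted p = 0.12). Htr1a, which encodes an inhibitory serotonin receptor, was at 17.6, 18.95 and 15.0 CPM under vehicle and 20.4, 22.1 and 23.6 CPM under clozapine (log2 0.36, SE 0.10, edgeR adjusted p = 0.13). Adra1a, an adrenergic receptor gene, differed by 0.40 and Adrb1 by 0.23. The following 4 genes fell outside the naming rule and were picked for their place in clozapine pharmacology. Htr2a, the gene of the 5-HT2A receptor, was at 27.5, 38.9 and 19.3 CPM under vehicle and 31.2, 31.2 and 30.0 CPM under clozapine. The vehicle libraries spanned the clozapine ones on both sides, and the log2 difference was 0.11 (SE 0.20, edgeR adjusted p = 0.887). Htr2c, whose product is a related receptor, was at 10.5, 12.4 and 9.97 CPM under vehicle and 8.98, 7.36 and 10.2 CPM under clozapine (log2 -0.30, SE 0.12, edgeR adjusted p = 0.314). Grm2, which encodes the presynaptic metabotropic glutamate receptor mGlu2, was at 96.0, 91.7 and 76.5 CPM under vehicle and 103, 91.9 and 101 CPM under clozapine (log2 0.16, SE 0.09, edgeR adjusted p = 0.519). Drd2, the dopamine D2 receptor gene, was barely detected, at 0.288 to 0.827 CPM in the 6 libraries. Of 7 metabotropic glutamate receptor genes 1 was higher at an unadjusted p under 0.05, Grm3, at log2 0.17 (edgeR adjusted p = 0.262).

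Wnt pathway regulators include the called gene Amer2. Of 22 tested, 8 (36.4%) were higher and 1 (4.55%) lower at an unadjusted p under 0.05, with a median of 0.0946 that was 0.0515 after the length and GC correction. Without knockout vehicle 5 the counts were 4 and 0, and without knockout clozapine 5 the higher count was again 4. Apc2, a neuronal relative of the tumour suppressor APC, was at 169.9, 171 and 143 CPM under vehicle and 198, 198 and 195 CPM under clozapine (log2 0.29, SE 0.06, edgeR adjusted p = 0.08). Dvl3, a dishevelled protein that relays Wnt signals, differed by 0.23 (edgeR adjusted p = 0.148) and Sfrp1, a secreted Wnt binder, by 0.32 (edgeR adjusted p = 0.177). These named members, which have opposite roles in the pathway, were thus on the same side. Of all 22, 15 had a positive difference, and the lowest value was -0.408.

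Of 19 clock genes 5 (26.3%) were higher and 0 lower, with a median of 0.0663 that was 0.0786 after the length and GC correction. Without knockout vehicle 2 these were 3 genes and 0.0182, and without knockout clozapine 5 the count was 3. Tef and Hlf, both D-box transcription factors, differed by 0.19 (edgeR adjusted p = 0.101) and 0.23 (edgeR adjusted p = 0.136). Of 20 activity-induced genes 0 had an unadjusted p under 0.05, with Egr3 at a log2 difference of 0.27 (edgeR adjusted p = 0.622) and Bdnf at -0.16 (edgeR adjusted p = 0.562). The median of the list changed sign when single libraries were left out, between -0.108 and 0.128. Of 24 genes of the unfolded protein response 2 were higher and 0 lower, with a median of 0.0592 against -0.167 in wild type. Of 25 cholesterol synthesis genes 1 was higher and 2 lower, with a median of -0.0443 against 0.183 in wild type; Hmgcs1, an early enzyme of the pathway, differed by -0.16 (edgeR adjusted p = 0.293). Of 18 neuropeptide and neurotrophin genes 2 were higher and 2 lower, with Vgf at 433, 467 and 433 CPM under vehicle and 415, 401 and 330.2 CPM under clozapine (log2 -0.22, edgeR adjusted p = 0.271). All 13 mitochondrially encoded protein genes had a negative difference, with a median of -0.206 that was -0.0585 after the length and GC correction, and 0 had an unadjusted p under 0.05. This rested on single libraries. The median level relative to each gene's mean was -0.316 in knockout clozapine 3 and -0.103 in knockout clozapine 4, but 0.124 in knockout clozapine 5, within the vehicle range of 0.0545 to 0.192. The median difference was -0.117 without knockout clozapine 3 and -0.349 without knockout clozapine 5, and in the last case 12 genes were lower at that p. Without wild-type vehicle 1, 7 were. The 48 nuclear respiratory chain genes and 75 cytosolic ribosomal protein genes had medians of 0.00222 and -0.00365, with 0 genes under that p. Of 14 NF-kB pathway genes 1 (7.14%) was higher and 2 lower, and of 14 cytosolic heat shock genes 1 (7.14%) was higher and 0 lower, higher shares near the 7.01% of all tested genes. The 13 glucocorticoid-responsive genes had 0 higher and 2 lower, Cdkn1a and Mt2, and the 10 tested replication-dependent histone genes 0 higher and 1 lower.

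**Figure D4:**
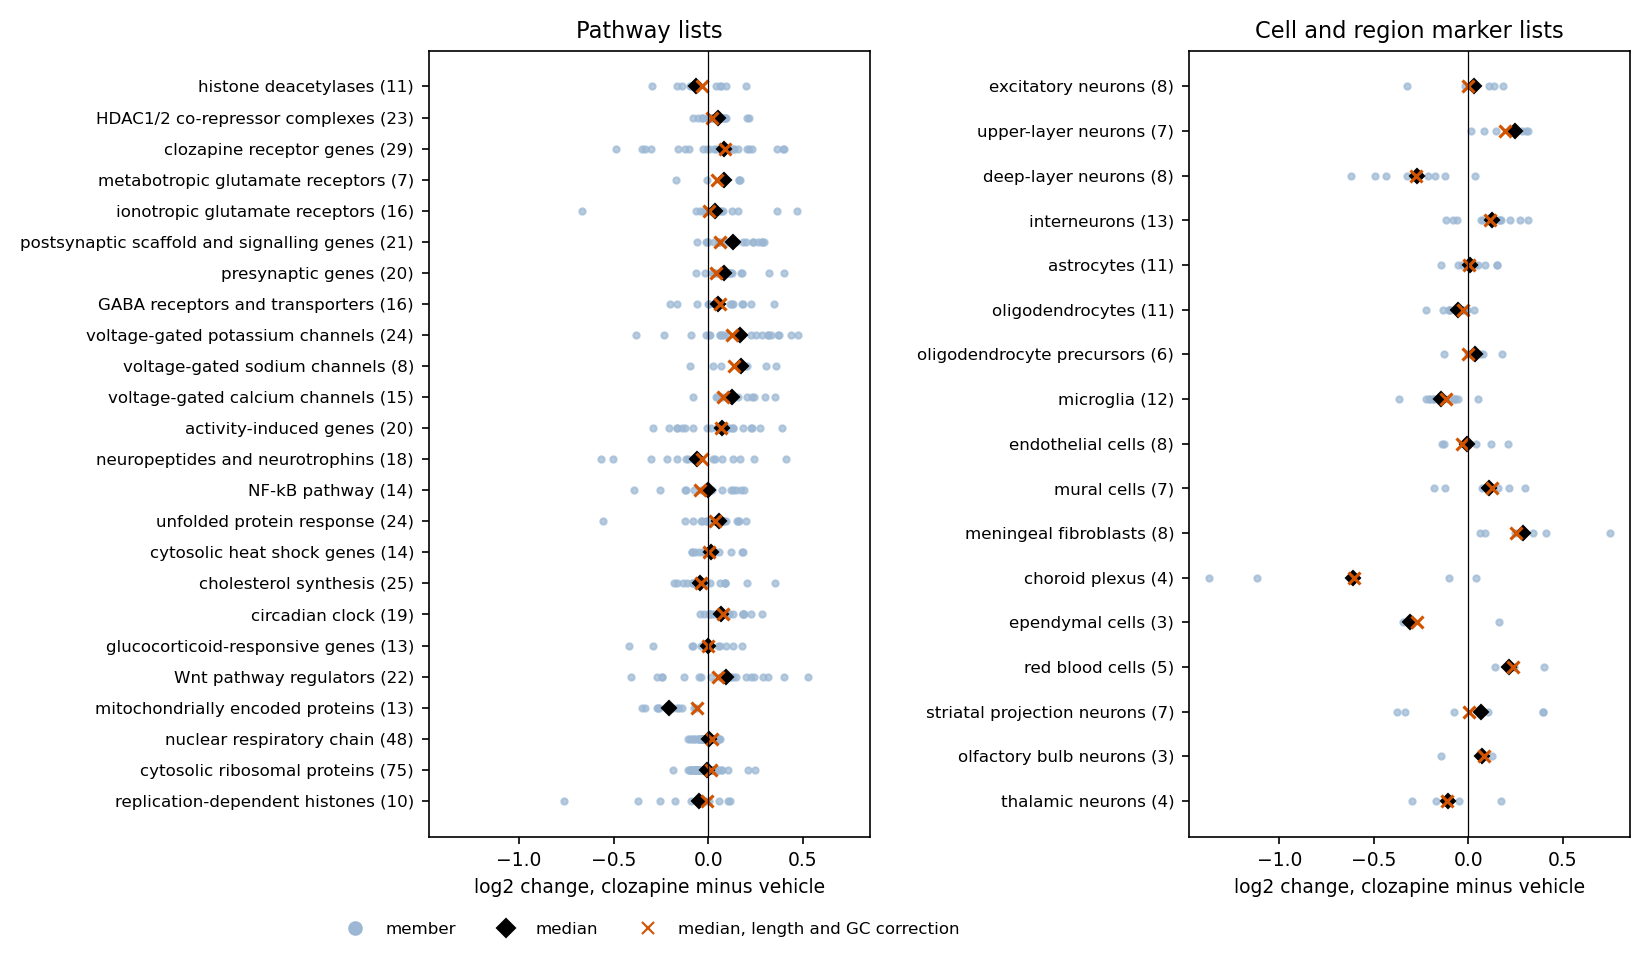
Log2 difference of clozapine minus vehicle in the labelled knockout (horizontal axes) for the members of 24 pathway lists and 17 marker lists, with the number tested in brackets; dots are genes, diamonds are medians and crosses are medians after the length and GC correction. Ion channel, postsynaptic, upper-layer, interneuron, mural, meningeal (0.289) and red blood cell (0.215) lists have medians above 0.1, and deep-layer, microglia, thalamic, choroid plexus (-0.61), ependymal (-0.306) and mitochondrially encoded (-0.206) lists medians below -0.1; the RNA polymerase III list, with a median of -1.64, and the hippocampal list, with 2 tested genes, are left out.

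Markers of cortical cell types were measured for the same libraries, and their part in the results above was not tested. Upper-layer neuron markers lay higher and deep-layer markers lower. All 7 upper-layer markers had a positive difference (median 0.249, but 0.154 without knockout vehicle 4 and 0.15 without knockout clozapine 5), and 2 of them an unadjusted p under 0.05, Rasgrf2 and Cux2. Cux2, a transcription factor of layers 2 to 4, was at 162, 158 and 147 CPM under vehicle and 197, 190.3 and 195 CPM under clozapine (log2 0.32, SE 0.06, edgeR adjusted p = 0.0728). The summed level was 802 to 855 CPM under vehicle and 947 to 1010 CPM under clozapine. Of 8 deep-layer markers 7 had a negative difference (median -0.27), and 2 an unadjusted p under 0.05. Rprm, a marker of layer 6, was at 38.2, 38.4 and 38.4 CPM under vehicle and 22.7, 28.5 and 30.4 CPM under clozapine (log2 -0.50, SE 0.17, edgeR adjusted p = 0.274). Sulf1, which encodes a sulfatase of heparan sulfate, differed by -0.44 (edgeR adjusted p = 0.244). The summed deep-layer level overlapped, at 226 to 306 CPM under vehicle and 210 to 241 CPM under clozapine, and without knockout vehicle 4 the median was -0.128.

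Of 13 interneuron markers 3 were higher and 0 lower at an unadjusted p under 0.05, with a median of 0.127. Reln, a secreted protein of layer 1 interneurons, was at 47.3, 45.4 and 44.8 CPM under vehicle and 58.5, 54.0 and 58.8 CPM under clozapine (log2 0.32, SE 0.08, edgeR adjusted p = 0.128). Gad1, which makes GABA, and Slc32a1, which loads it into vesicles, differed by 0.16 and 0.17. Of 12 microglia markers 11 had a negative difference (median -0.147) and 3 were lower at that p, Ctss, C1qa and C1qb. Ctss, a lysosomal protease, was at 62.4, 57.6 and 62.8 CPM under vehicle and 48.7, 41.1 and 51.8 CPM under clozapine (log2 -0.37, SE 0.10, edgeR adjusted p = 0.133). Knockout clozapine 4 was the lowest library of all 3 genes, and without it 1 gene was lower and the list's median was -0.0273, while without knockout clozapine 5 these were 6 and -0.228. Of 11 astrocyte and 11 oligodendrocyte markers 0 had an unadjusted p under 0.05, with medians of 0.0101 and -0.0561. All 8 meningeal fibroblast markers had a positive difference (median 0.289), 2 of them with an unadjusted p under 0.05. The median was 0.142 without knockout vehicle 4, 0.143 without knockout clozapine 3 and 0.457 without knockout vehicle 5, with summed levels that overlapped, 981 to 1580 CPM under vehicle and 1280 to 1830 CPM under clozapine. The 4 choroid plexus markers tested had a median of -0.61 with 1 lower at that p. The 3 ependymal markers had -0.306, which was 0.0377 without knockout vehicle 2, and the 5 red blood cell markers 0.215, which was -0.124 without knockout clozapine 4, with 0 genes at that p in either list. Striatal, thalamic and olfactory bulb marker lists had 1, 0 and 0 genes higher and 1, 0 and 0 lower at that p.

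Whether clozapine acted differently in the labelled knockout and in wild type was tested as the difference between the 2 effects. It passed for 113 genes (0.654%), 91 with a larger value in the labelled knockout and 22 with a smaller one. In the labelled knockout 61 of the 113 were higher and 17 lower at an unadjusted p under 0.05. Such a p in both genotypes with opposite signs was found for 76, a pattern that the choice by this test favours. Besides the 7SL genes, Cacna1a and Cux2, the named ones cover varied roles. Eln, the elastin gene, was at 8.61, 8.92 and 8.38 CPM under vehicle and 12.3, 12.1 and 11.4 CPM under clozapine in the labelled knockout, while its wild-type means were 12.998 and 8.76 CPM. The difference of its effects was 1.04 (edgeR adjusted p = 0.00684). Rtn4rl1, a receptor for axon growth inhibitors, was at 95.1, 93.3 and 94.1 CPM and then 112, 111 and 105 CPM in the labelled knockout, with wild-type means of 127 and 108 CPM (difference 0.45, edgeR adjusted p = 0.0055). Cacng2, the AMPA receptor auxiliary subunit stargazin, had log2 changes of 0.15 in the labelled knockout and -0.31 in wild type (difference 0.46, edgeR adjusted p = 0.0138). Adi1, an enzyme of methionine salvage, ran the other way, with -0.47 and 0.85 (difference -1.32, edgeR adjusted p = 0.015). Pitpnm2, a phosphatidylinositol transfer protein, Dmtn, an actin-bundling protein, Mapk6, an atypical MAP kinase, and Sh2b2, a signalling adaptor, had differences of 0.50, 0.38, 0.58 and 0.80. The count was 12 under a replicate block and 41 after the length and GC correction, and between 13 and 181 with 1 library left out.

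**Figure D5:**
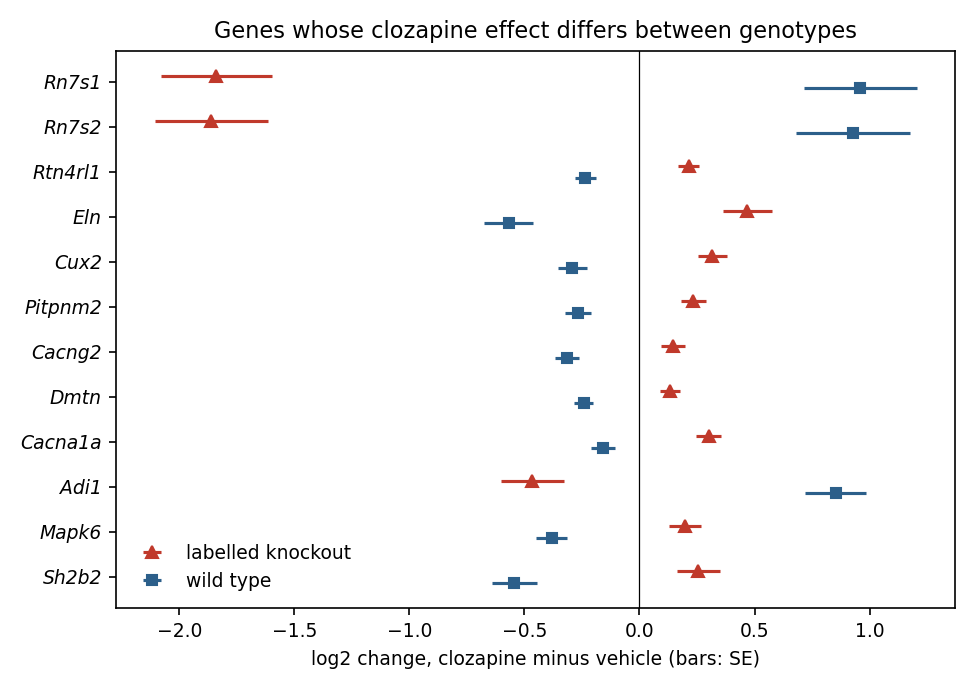
Log2 change with clozapine (horizontal axis, bars are SE) in the labelled knockout (red triangles) and wild type (blue squares) for 12 genes. They have the smallest p for the difference among genes with no overlap and an unadjusted p under 0.05 in the labelled knockout. The 2 genotypes lie on opposite sides of 0 for all 12 genes, from Rn7s1 at -1.84 and 0.96 to Sh2b2 at 0.26 and -0.54, a pattern that this choice favours.

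The genes that clozapine changed in wild type were followed into the labelled knockout, where the comparison has its own vehicle and clozapine libraries. Of 141 such genes (0.816% of those tested), 0 passed in the labelled knockout. The test of the difference passed for 56, against 0.654% of all tested genes. That test uses the same wild-type libraries that chose these genes, so the choice favours such passes and larger values in wild type. The 33 that rose in wild type had a median log2 change of 0.511 there and 0.0497 in the labelled knockout, where 7 had the same sign with an unadjusted p under 0.05 and 3 the opposite sign. The 108 that fell had medians of -0.396 and 0.0429, with 3 of the same and 18 of the opposite sign at that p. Of all tested genes, 7.01% were higher and 5.24% lower at that p in the labelled knockout. This count of 141 depended on single libraries. Removing a wild-type vehicle library left 20 calls (number 3) or 71 (number 1), and removing a wild-type clozapine library left 36 (number 5) or 91 (number 2). It was 89 with knockout clozapine 4 removed, 219 with knockout vehicle 5 removed and 18 under a replicate block. Hspa5, the endoplasmic reticulum chaperone BiP, was at 227, 218 and 220.2 CPM under vehicle and 233, 244 and 226 CPM under clozapine in the labelled knockout, against wild-type means of 371 and 261 CPM. Its effects differed by 0.59 (edgeR adjusted p = 0.00195). The clock output gene Dbp was at 112, 117 and 119.6 CPM and then 140.3, 119 and 137 CPM, against wild-type means of 99.8 and 64.8 CPM (difference 0.81, edgeR adjusted p = 0.00195). Nr1d1, the clock repressor REV-ERB alpha, and Apod, a lipid-binding apolipoprotein, had log2 differences of -0.02 and 0.02 in the labelled knockout and -0.54 and 0.54 in wild type, and both differed between genotypes (edgeR adjusted p = 0.0105 and 0.0315). For Pak7, a neuronal kinase, and S100a6, a calcium-binding protein, the sign was shared: 0.17 and 0.51 for Pak7, and -0.19 and -0.55 for S100a6, and the differences did not pass (edgeR adjusted p = 0.0888 and 0.122).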

How the data were processed

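RNA of 12 libraries, 3 per group, was sequenced as mRNA libraries after extraction with a column kit, per the labels' protocols. The deposited table holds the authors' expected counts per gene, estimated counts that need not be whole. Per the submitters' processing notes, STAR 2.5.1b, featureCounts and the build GRCm38 were used. How reads of several genes were shared out, and whether strand was used, is not given in the sources used here. The planned design assumed whole counts. As 7.39% of values were not whole, values were rounded, and the unrounded ones were run as an alternative.

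Genes were named from GENCODE release 21 (46574 of 47069 matched). Genes with low counts were dropped by edgeR's filterByExpr (29783 genes, leaving 17286 with 99.9% of counts). The quasi-likelihood test of edgeR 4.0.16 (R 4.3.3) was fitted on 4 groups with TMM scaling and gave the clozapine effect in each genotype and their difference, with Benjamini-Hochberg adjustment over all tested genes. Totals per library were 23788014 to 28069638 in the labelled knockout. Scripts were tested on simulated data.

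Alternatives were RLE scaling, DESeq2 1.42.0, limma-voom (limma 3.58.1), other filters, the 6 libraries alone, a replicate block, 1 surrogate variable (sva 3.50.0), a threshold of 0.10, a spline correction (5 degrees of freedom) of each library for length and GC over 17197 genes, and each library left out. No column of the table belonged to another sample set.

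The members and gene lists were chosen with earlier results of these data known. Named genes were the called ones, and the 12 higher and 12 lower of smallest p whose groups did not overlap and whose mean reached 1 CPM (predicted genes and clones left out). Under the same conditions, 12 were named by smallest p for the difference between genotypes. These 12 also had to have an unadjusted p under 0.05 in the labelled knockout. Further ones were the 6 of smallest p in wild type, and up to 4 members of each list with an unadjusted p under 0.05, or the 2 of smallest p where none had it. Htr2a, Htr2c, Grm2 and Drd2 were named outside that rule. Some items that this rule would name are not reported here.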

Additional observations from a re-analysis of the deposited data

Results flagged for a closer look

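The test of the difference between the clozapine effect in the labelled knockout and that in wild type, 3 libraries in each of 4 groups, passed for 23 of the genes named above or shown as list members, and these differences put them forward for a closer look. The naming rule took 12 of the 23 by their smallest p in this same test. Hspa5, Nr1d1, Dbp and Apod were named by their wild-type p, from libraries that enter the test. Both choices favour a pass, which 0.654% of all tested genes had. Each value is the log2 clozapine effect of the labelled knockout less the wild-type one. The edgeR adjusted p-values were between 0.00195 and 0.0477.

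Differences were positive for 16 genes. The value was 0.458 for Cacna1a, 0.461 for Cacng2, 0.466 for Shank3, 0.496 for Shank2 and 0.352 for the muscarinic receptor gene Chrm1. It was 1.04 for Eln, 0.609 for Cux2, 0.449 for Rtn4rl1, 0.501 for Pitpnm2, 0.376 for Dmtn, 0.58 for Mapk6 and 0.8 for Sh2b2. The chaperone genes of the endoplasmic reticulum Hspa5 and Pdia4 had 0.592 and 0.563, and the clock genes Dbp and Nr1d1 had 0.808 and 0.523.

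Differences were negative for Rn7s1 and Rn7s2 at -2.8 and -2.79, Adi1 at -1.32, the layer 6 marker Rprm at -1.38, the serotonin receptor gene Htr2c at -0.862, the calcium sensor gene Hpcal1 at -0.597 and Apod at -0.519. With each of the 12 libraries left out in turn, Rn7s1, Rn7s2, Rtn4rl1, Eln, Cux2, Pitpnm2, Hspa5, Nr1d1 and Dbp passed all 12 times, while Chrm1 and Htr2c passed 1 time and Pdia4 and Rprm 2 times. Under a replicate block only Rn7s1, Rn7s2, Eln, Cux2, Hspa5 and Dbp of the 23 passed. Rtn4rl1, Pitpnm2 and Nr1d1 did not (edgeR adjusted p = 0.0834, 0.0907 and 0.1). No library but wild-type vehicle 1 has its number, so the block leaves that library without weight in the test. After the length and GC correction 8 of the 23 no longer passed: Cacna1a (edgeR adjusted p = 0.063), Dmtn (0.0969), Sh2b2 (0.0538), Chrm1 (0.095), Shank3 (0.256), Shank2 (0.0976), Rprm (0.0755) and Htr2c (0.0547).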

How the results depend on the processing

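The 4 genes called in the labelled knockout became 2 with RLE size factors, 2 with limma-voom, 2 after the length and GC correction, 7 with the 6 libraries alone, 274 with DESeq2, 213 with no filter beyond 1 count, 209 with 1 surrogate variable and 113 at an adjusted p under 0.10. With 1 surrogate variable computed from log2 CPM, an alternative chosen after seeing the data, the count was 2. In each of these settings with 2 calls, 0 genes were higher and 2 lower, so Amer2 and Tnrc18 were not called. Leaving out 1 library gave 0 to 25. The 113 genes whose effect differed between genotypes became 354 with DESeq2, 302 with no filter beyond 1 count, 290 with 1 surrogate variable, 21 with the surrogate variable from log2 CPM, 258 at 0.10 and 41 after the length and GC correction. Leaving out 1 library gave 13 to 181, the lowest without knockout clozapine 5 and the highest without knockout vehicle 4. The cause of these shifts was not tested.

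Samples share replicate numbers across groups, and the labels do not say what a shared number means. The correlation of deviations was -0.0967 to 0.209 for same-numbered libraries and -0.294 to 0.228 for differently numbered ones. With 3 libraries a group these values cannot settle whether same-numbered libraries share a batch. A replicate block gave 174 genes in the labelled knockout and 12 for the difference between genotypes. In that fit wild-type vehicle 1, alone in its number, carries no weight, so the wild-type effect rests on fewer libraries.

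No called gene changed direction. Signs turned for 3 named genes that were not called in the labelled knockout: Nr1d1 was at 0.0238 without knockout vehicle 4 and 0.0253 without knockout clozapine 4 (lowest -0.0612, without knockout clozapine 3), Apod at -0.0297 without knockout vehicle 4 and -0.031 without knockout clozapine 3, and Htr2a at -0.11 without knockout vehicle 5 (highest 0.4, without knockout vehicle 4). Genes near 1 CPM, such as Rn7s1, Rpph1 and Drd2, rest on few counts.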
